A study of Mus musculus with 35 samples.

Results

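A set of 10 widely used transcriptional targets of the tumour suppressor p53 was followed through a styrene concentration series in mouse lung: Mdm2, Ccng1, Trp53inp1, Cdkn1a, Btg2, Phlda3, Tnfrsf10b, Sesn2, Bax and Gdf15. They were taken by symbol, as genes with a probe set to which the platform annotation gives that single symbol, and 8 of the 10 were measured this way, among 17097 genes in all. Bax and Gdf15 were not analysed here. Where a gene had several such probe sets, the one with the highest mean over all arrays stands for the gene, and the others are given beside it.

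The samples were whole lungs of adult male CD-1 mice, bought from Taconic, that breathed air only or air with 1, 5, 10, 20, 40 or 120 ppm styrene, a volatile solvent. Each of the 7 groups held 5 mice, labelled as biological replicates, with 1 Affymetrix array per mouse and 35 arrays in all. Mice were killed the morning after their last exposure. Protocol and sample titles describe a single exposure of 6 hours on 1 day, whereas the sample characteristics give 5 days, and no choice between the labels is made here.

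p53 is a transcription factor that is held at a low level in unstressed cells, mainly because the ubiquitin ligase Mdm2 marks it for destruction. DNA damage and other stresses stabilise it, and it then binds a pair of short half-sites near its target genes and raises their transcription. The targets stop the cell cycle (Cdkn1a, Btg2), feed back on p53 itself (Mdm2, Ccng1, Trp53inp1), favour cell death (Phlda3, Tnfrsf10b) or alter metabolism (Sesn2). Styrene is converted in the club cells of the mouse airway to a reactive epoxide that can bind DNA and proteins.

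To show the element by which these genes are known, the promoter windows of RefSeq (build GRCm38.p6, 250 bases before to 50 after a start site) were searched on both strands for the p53 half-site consensus of 10 bases. Windows were held for 6 of the 8 genes, 7 windows in all, since Cdkn1a has 2 start sites that lie 2790 bases apart. Trp53inp1 and Tnfrsf10b had no entry. An exact half-site lay in 3 of the 7 windows, those of Mdm2, Ccng1 and the upstream start of Cdkn1a, against 2745 of all 32851 windows (8.36%). A back-to-back pair of half-sites, with at most 1 mismatch to the consensus over all 20 bases, lay in 2 of them. Of all windows 29 (0.0883%) held such a pair. The stretches that hold these matches are printed 5′ to 3′ on the strand of the gene, with the matched bases in capitals. They lie at chr10:117710895-117710984 (minus strand, Mdm2), chr11:40755422-40755521 (minus strand, Ccng1) and chr17:29090866-29090978 (plus strand, Cdkn1a).
Mdm2: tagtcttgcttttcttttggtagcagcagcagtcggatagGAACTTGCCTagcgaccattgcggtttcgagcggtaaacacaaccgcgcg
Ccng1: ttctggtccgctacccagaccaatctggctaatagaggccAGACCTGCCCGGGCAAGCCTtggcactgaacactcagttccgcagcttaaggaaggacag
Cdkn1a: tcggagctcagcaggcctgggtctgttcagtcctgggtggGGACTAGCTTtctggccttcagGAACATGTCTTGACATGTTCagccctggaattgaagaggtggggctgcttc
The Cdkn1a stretch ends at the base before the start site, and its pair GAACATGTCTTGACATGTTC begins 51 bases upstream of that site. Its first match, GGACTAGCTT, is a lone half-site. In Ccng1 the pair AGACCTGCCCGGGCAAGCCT is made of an exact match (GGGCAAGCCT) and a neighbour that carries a mismatch, and in Mdm2 the half-site GAACTTGCCT stands alone. No match was found in the windows of Btg2, Phlda3 and Sesn2 or at the other start of Cdkn1a. These are matches of letters, and binding was not measured.

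The arrays fell into 2 sets, and every comparison of 5 ppm or more with air or 1 ppm spans the gap between them. The interquartile range of an array, the spread of its log2 values, was 2.66 to 3.16 in the 10 arrays of air and 1 ppm and 3.28 to 3.54 in the 25 arrays of 5 to 120 ppm, with no overlap. The score on the first principal component did not overlap either (0.157 to 0.312 against -0.221 to 0.0311). Its group mean was lowest at 5 ppm (-0.200) and lay between -0.105 and -0.048 from 10 to 120 ppm. The mean interquartile range was highest at 5 ppm too (3.48). The part of this in the members' values at 5 ppm was not tested. Markers of club and alveolar cells summed to a high level throughout. The summed level of the listed club cell markers (3 of 3 measured) lay between 14.8 and 15.1 log2 in every mouse. That of alveolar type 2 cells (3 of 5 measured) lay between 14.5 and 14.6, and that of type 1 cells (3 of 3 measured) between 14.3 and 14.6. At 120 ppm against air no club cell marker was called, 1 type 2 marker was called higher, and of the type 1 markers 1 was higher and 2 lower. Of all genes 29.8% were called higher there and 39.1% lower. Some marker lists of other cells moved with the gap. At 120 ppm against air, 4 of 4 platelet and 2 of 2 red cell markers were called lower, 2 of 3 alveolar macrophage markers higher (1 of 3 after quantile normalization), and of 3 ciliated cell markers 2 lower and 1 higher. The summed platelet level was 10.3 to 11.1 log2 in air and 1 ppm and 8.57 to 9.91 from 5 ppm up. The summed red cell level was 10.4 to 11.5 and 8.84 to 10.3, the alveolar macrophage level 10.4 to 11.4 and 11.6 to 12.5, and the ciliated cell level 12.0 to 12.7 and 11.1 to 11.9, in the same order. Of the other lists at 120 ppm, 0 of 3 neutrophil and 0 of 3 liver markers were called, and 1 of 3 striated muscle markers was lower. Of 3 endothelial markers 1 was higher and 1 lower, of 2 B cell markers 1 and 1, and of 3 T cell markers 2 and 1. Within the 40 ppm group the summed liver level ran from 5.16 to 11.8 log2 and that of striated muscle from 9.26 to 12.1. RMA values have no zero, so no marker can be called absent from them. Their part in the results on p53 targets was not tested. In whole lung, fewer cells of a type and less RNA per cell cannot be told apart.

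The p53 targets did not move in a single direction. From 5 to 120 ppm, Mdm2, Ccng1 and Trp53inp1 were called higher than in air, Cdkn1a, Phlda3 and Sesn2 were called lower, and Btg2 and Tnfrsf10b passed the test at 5 ppm alone. A gene was called where limma's moderated test, over all 7 groups, gave a Benjamini-Hochberg adjusted p under 0.05 across all genes. At 5 ppm 3 of 8 were higher and 5 lower, where 29.6% of all genes were called higher and 47.4% lower. At 10, 20, 40 and 120 ppm the count was 3 higher, 3 lower and 2 not called at each concentration. The shares of all genes called higher there were 29.0%, 29.4%, 28.6% and 29.8%, and those called lower were 37.4%, 34.2%, 36.2% and 39.1%. The members' calls in both directions therefore lie near the background of a table in which most genes were called. The median log2 change of the 8 genes was -0.30 at 5 ppm and -0.22 at 120 ppm, beside -0.23 and -0.15 over all genes. These comparisons share the same 5 air controls. With each array's interquartile range as a covariate, Mdm2 and Phlda3 were still called at every concentration from 5 ppm up (1.52 and -1.48 at 120 ppm), Sesn2 at 5, 20 and 120 ppm, and Cdkn1a, Ccng1 and Trp53inp1 at none. Air and the groups from 5 ppm up share no range of that covariate, so these values are extrapolated and the array-wide difference and the exposure cannot be told apart. The share of all genes called in the fit with the covariate is not given here.

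**Figure D1:**
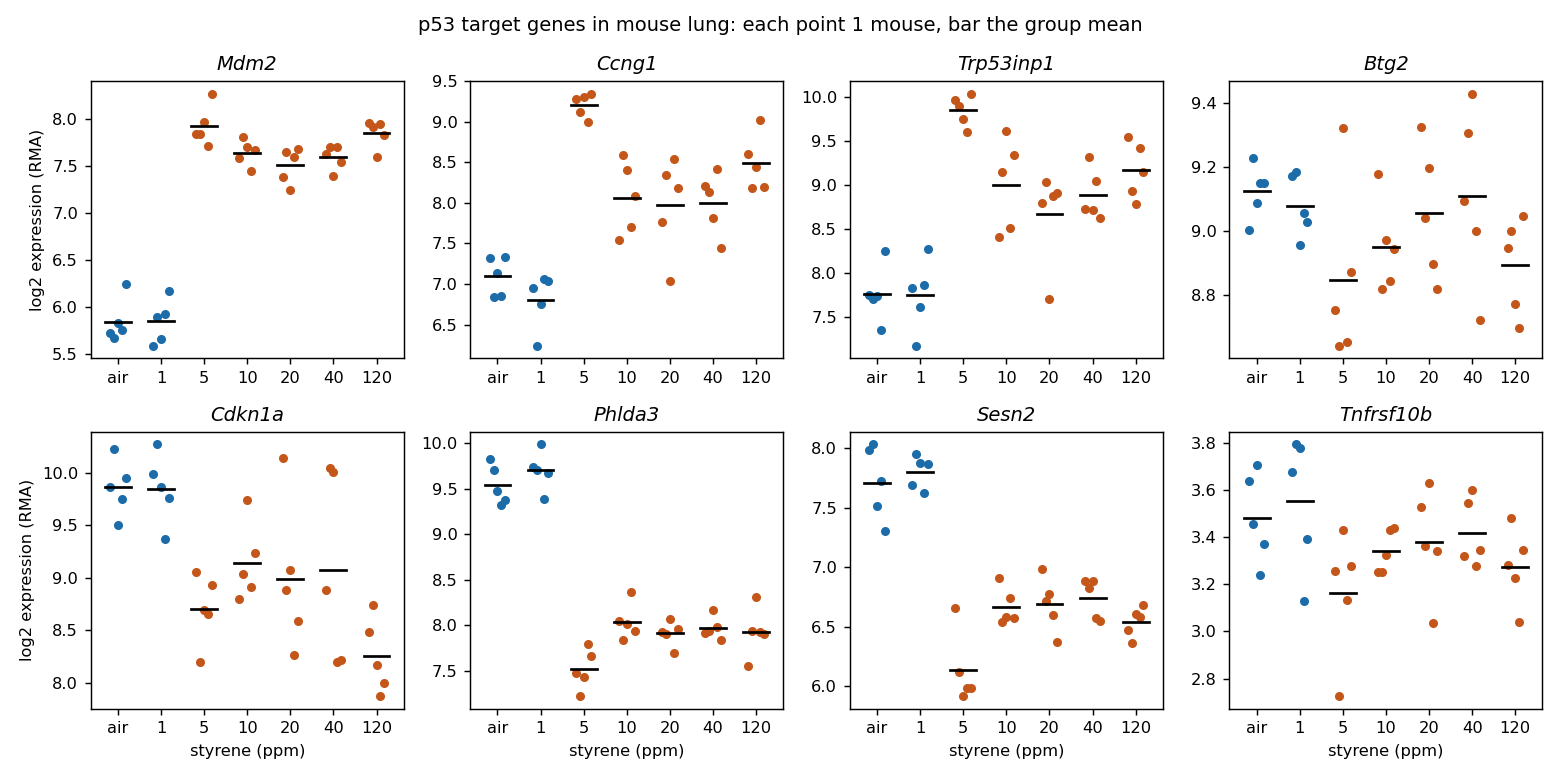
Log2 expression (vertical axis, RMA values) of the 8 p53 target genes in each mouse, by group (horizontal axis, air or styrene in ppm). Each point is 1 mouse, blue for air and 1 ppm and orange for 5 to 120 ppm, and the bar is the mean of 5 mice. Mdm2, Ccng1 and Trp53inp1 stand highest at 5 ppm, where Phlda3 and Sesn2 stand lowest, and the 20 and 40 ppm groups of Cdkn1a are spread from 8.20 to 10.14. The 5 ppm arrays also had the mean score furthest from air on the first principal component. The vertical axes differ between genes and do not start at 0.

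Mdm2, the ubiquitin ligase that closes the feedback loop on p53, was higher in every mouse from 5 ppm up. Its log2 values were 5.72, 5.67, 5.83, 5.75 and 6.24 in air and 5.59, 5.89, 5.65, 5.92 and 6.17 at 1 ppm. At 5 ppm they were 7.84, 7.84, 7.96, 7.72 and 8.27, and at 120 ppm 7.95, 7.91, 7.60, 7.94 and 7.83. Every mouse from 5 ppm up lay above every mouse in air or at 1 ppm, and the lowest of them, at 20 ppm, was at 7.24. The rise was 4.24-fold at 5 ppm (log2 change 2.09 ± 0.12 SE, adjusted p 5.5e-16) and 4.02-fold at 120 ppm (2.01 ± 0.12, adjusted p 4.4e-15). The groups of 10, 20 and 40 ppm gave 1.80, 1.67 and 1.75, each ± 0.12. At 120 ppm the change stood at percentile 98.8 of all genes. The other Mdm2 probe set gave 2.18 ± 0.20 at 5 ppm and 1.97 ± 0.20 at 120 ppm.

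Ccng1 encodes cyclin G1, which recruits a phosphatase to Mdm2. Its log2 values were 7.32, 6.84, 7.13, 6.86 and 7.33 in air, 9.28, 9.13, 9.30, 9.001 and 9.35 at 5 ppm, and 7.54, 8.59, 8.41, 7.70 and 8.09 at 10 ppm. At 120 ppm they were 8.61, 8.18, 8.45, 9.03 and 8.19. The 5 ppm group stood above every mouse of the other groups except 1 mouse at 120 ppm, whose 9.03 lay just above the lowest of the 5 ppm mice. The change against air was 2.12 ± 0.23 at 5 ppm (4.33-fold, adjusted p 5.3e-10), 0.97 ± 0.23 at 10 ppm, 0.88 ± 0.23 at 20 ppm, 0.91 ± 0.23 at 40 ppm and 1.40 ± 0.23 at 120 ppm (2.63-fold, adjusted p 2.3e-06). At 20 ppm mouse 3, at 7.04, lay within the range of the air group. The other 2 probe sets of Ccng1 moved in the same direction, by 1.58 ± 0.14 and 2.98 ± 0.27 at 120 ppm.

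Trp53inp1, which helps activate p53 as a partner of the kinase HIPK2, followed a similar course. Its log2 values were 7.75, 7.71, 7.74, 7.35 and 8.25 in air and 9.96, 9.89, 9.74, 9.60 and 10.03 at 5 ppm. They were 8.40, 9.14, 9.61, 8.51 and 9.34 at 10 ppm and 9.54, 8.93, 8.78, 9.42 and 9.15 at 120 ppm. The groups at 5, 10, 40 and 120 ppm did not overlap with air, and at 20 ppm mouse 3 (7.71), the mouse that was also low for Ccng1, lay inside the air range. The change was 2.09 ± 0.23 at 5 ppm (adjusted p 1.0e-09), 1.24 at 10 ppm, 0.91 at 20 ppm, 1.13 at 40 ppm and 1.41 ± 0.23 at 120 ppm (adjusted p 2.7e-06). A dimmer probe set of the same gene, with a mean of 4.96 against 8.72, rose at 5 ppm (0.82 ± 0.16) and was not called from 10 to 120 ppm, where its change was 0.01 to 0.20. The call for Trp53inp1 above 5 ppm thus rests on its brighter probe set.

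Cdkn1a encodes p21, the inhibitor of cyclin-dependent kinases through which p53 halts the cell cycle, and it was lower rather than higher. Its log2 values were 9.86, 10.22, 9.51, 9.75 and 9.95 in air and 9.99, 10.27, 9.86, 9.37 and 9.76 at 1 ppm. At 5 ppm they were 9.06, 8.20, 8.69, 8.65 and 8.93. At 120 ppm they were 8.48, 8.75, 8.17, 7.87 and 7.999. Both of these groups lay wholly below air. The change was -1.15 ± 0.31 at 5 ppm (2.22-fold lower, adjusted p 0.0012) and -1.60 ± 0.31 at 120 ppm (3.04-fold lower, adjusted p 2.9e-05), the latter at percentile 1.53 of all genes.

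Between those concentrations the mice differed widely in Cdkn1a. Values were 8.80, 9.03, 9.74, 8.91 and 9.23 at 10 ppm, 10.14, 8.88, 9.08, 8.27 and 8.59 at 20 ppm, and 8.88, 10.05, 10.01, 8.20 and 8.22 at 40 ppm. Mouse 3 at 10 ppm, mouse 1 at 20 ppm and mice 2 and 3 at 40 ppm lay within the range of air, whereas the remaining mice of those groups lay below it. The SD was 0.71 at 20 ppm and 0.91 at 40 ppm, against 0.26 in air (n = 5 each). The changes of -0.72, -0.87 and -0.79 (each ± 0.31) at 10, 20 and 40 ppm were called at adjusted p 0.041, 0.015 and 0.026, and these calls rested on single mice. The 10 ppm call was lost without any 1 of air mice 1, 2, 4 and 5 or 10 ppm mice 1, 2, 4 and 5 (adjusted p 0.051 to 0.096). The 20 ppm call was lost without mouse 4 of that group (0.064). The 40 ppm call was lost without air mouse 2 (0.066) or 40 ppm mouse 1, 4 or 5 (0.053, 0.11 and 0.11), and also when air and 40 ppm were fitted alone (0.070). The other Cdkn1a probe set gave -1.64 ± 0.33 at 120 ppm and -0.71 ± 0.33 at 40 ppm, the latter not called (adjusted p 0.067).

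Btg2, an antiproliferative cofactor of mRNA deadenylation that p53 also raises, changed little on its brighter probe set. All 35 values lay between 8.64 and 9.43. In air they were 9.003 to 9.23, with a median of 9.15, and at 120 ppm 8.70 to 9.05, with a median of 8.95. The ranges overlapped with air at every concentration. At 5 ppm the change was -0.28 ± 0.12 (adjusted p 0.039), beside a median of -0.23 over all genes, and at 120 ppm it was -0.23 ± 0.12 (adjusted p 0.089, not called). The 5 ppm call was lost without any 1 of air mice 2, 4 and 5 or 5 ppm mice 1, 2, 4 and 5 (adjusted p 0.051 to 0.11). It was also lost with 1 ppm in place of air (0.080) and when air and 5 ppm were fitted alone (0.079).

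The 2 probe sets of Btg2 disagreed. The second had a mean of 9.15 ± 0.44 (SD, n = 5) in air, close to the first, but 7.52 ± 1.10 at 5 ppm and 7.74 ± 1.20 at 40 ppm. It was called lower at 5 ppm (-1.63 ± 0.51, adjusted p 0.0055), 10 ppm (-1.62), 20 ppm (-1.27) and 40 ppm (-1.41), and not at 120 ppm (-1.10 ± 0.51, adjusted p 0.062). Under the mean of both, Btg2 was called lower at 10, 20, 40 and 120 ppm as well. Which probe set reports the transcript more faithfully was not tested.

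Phlda3, a repressor of the survival kinase AKT, fell at every concentration from 5 ppm up, on its single probe set. Its log2 values were 9.83, 9.70, 9.47, 9.32 and 9.38 in air and 9.74, 9.71, 9.99, 9.38 and 9.67 at 1 ppm. At 5 ppm they were 7.48, 7.22, 7.43, 7.79 and 7.66, and at 120 ppm 7.56, 7.93, 8.31, 7.92 and 7.90. The highest of the 25 mice from 5 ppm up, at 8.36, was below the lowest in air or at 1 ppm. The change was -2.02 ± 0.13 at 5 ppm (4.06-fold lower, adjusted p 3.2e-15). It lay between -1.50 and -1.63 from 10 to 120 ppm (-1.61 ± 0.13 at 120 ppm, adjusted p 1.1e-12). At 20 ppm it stood at percentile 0.240 of all genes.

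Tnfrsf10b encodes the only TRAIL death receptor of the mouse. Its values, 2.73 to 3.79 over all mice, put it at percentile 15.8 of genes by mean level, near the bottom of the scale. It was called lower at 5 ppm (-0.32 ± 0.13, adjusted p 0.027), with 5 of 5 mice below the air mean, and at no other concentration against air (-0.06 to -0.21). Its ranges overlapped with air in every group. The 5 ppm call was lost without air mouse 1 (adjusted p 0.066), air mouse 3 (0.080) or 5 ppm mouse 2 (0.13), the last of which held the lowest value. It was also lost after quantile normalization (0.29), with both probe sets averaged (0.16) and when air and 5 ppm were fitted alone (0.062). The other probe set showed 0.01 ± 0.12 at 5 ppm.

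Sesn2 encodes sestrin 2, which restrains the growth kinase mTORC1 under stress and responds to the amino acid stress factor ATF4 as well as to p53. Its log2 values were 7.99, 8.03, 7.51, 7.72 and 7.30 in air, 6.66, 6.12, 5.92, 5.98 and 5.99 at 5 ppm, and 6.47, 6.36, 6.61, 6.58 and 6.68 at 120 ppm. Every mouse from 5 ppm up lay below every mouse in air. The change was -1.58 ± 0.13 at 5 ppm (2.98-fold lower, adjusted p 2.8e-12), -1.04 at 10 ppm, -1.02 at 20 ppm, -0.97 at 40 ppm and -1.17 ± 0.13 at 120 ppm (2.25-fold lower, adjusted p 3.4e-09). The second probe set fell by 2.47 at 5 ppm and by 2.23 at 120 ppm on the log2 scale.

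**Figure D2:**
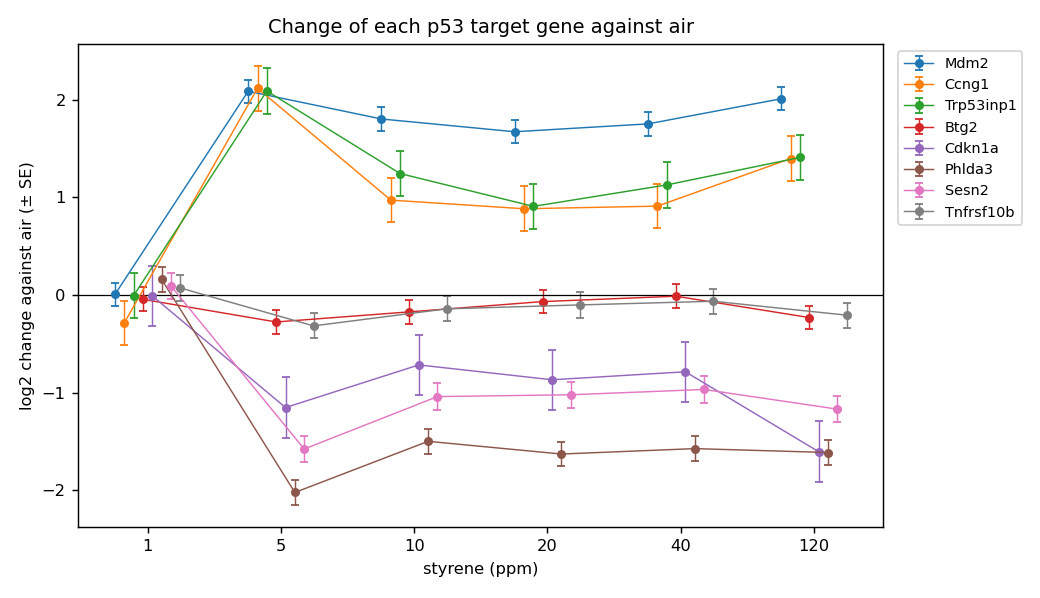
Log2 change against air (vertical axis) with its standard error for each p53 target gene at each styrene concentration (horizontal axis, ppm, evenly spaced by group, points shifted sideways to separate genes). At 1 ppm all 8 changes lie between -0.29 and 0.16, at 5 ppm 3 genes stand near 2.1 and Phlda3 at -2.02, and at 120 ppm Cdkn1a reaches -1.60 beside Phlda3 at -1.61.

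At 1 ppm none of the 8 genes was called, by limma's adjusted p or at an unadjusted p under 0.05. Of all genes 0.965% were called higher and 1.49% lower, and 15.6% had an unadjusted p under 0.05. The largest change among the p53 targets was that of Ccng1, -0.29 ± 0.23 (adjusted p 0.61). The arrays of 1 ppm belong to the set that also holds air. Against 1 ppm in place of air, Mdm2, Ccng1 and Trp53inp1 were still called higher and Cdkn1a, Phlda3 and Sesn2 lower at each concentration from 5 to 120 ppm.

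Between neighbouring concentrations, the p53 targets, like all genes, were called most often from 1 to 5 ppm. That step spans the gap between the 2 sets of arrays. Comparing 5 with 1 ppm, 7 of 8 genes were called (3 higher, 4 lower), where 79.6% of all genes were called in either direction. Ccng1 was 2.40 ± 0.23 higher, Trp53inp1 2.095 ± 0.23 and Mdm2 2.08 ± 0.12, while Phlda3 was at -2.18 ± 0.13. Tnfrsf10b was at -0.39 ± 0.13 and lost its call after quantile normalization (adjusted p 0.16). Btg2 was not called (-0.23 ± 0.12, adjusted p 0.080), and was called without mouse 3 of the 5 ppm group (0.0069). From 5 to 10 ppm 4 of 8 were called, where 27.2% of all genes were, and each went back towards air: Ccng1 by -1.15 ± 0.23 (adjusted p 0.00049), Trp53inp1 by -0.84 ± 0.23 (0.0070), Phlda3 by 0.52 ± 0.13 (0.0028) and Sesn2 by 0.54 ± 0.13 (0.0037). The mean score of the arrays on the first principal component also moved towards air, from -0.200 to -0.085. Mdm2 differed by -0.28 ± 0.12 and was not called (adjusted p 0.074). It was called without mouse 4 of the 5 ppm group (0.041) and when dim genes were left out (0.049). The step comparisons share groups with each other.

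Above 10 ppm no step was called for any of the 8 genes. Between 10 and 20 ppm 0% of all genes were called, and between 20 and 40 ppm 0% again, with 0 of the 8 genes at an unadjusted p under 0.05 in either step. Of all genes 9.29% and 5.75% had an unadjusted p under 0.05 in these steps by limma. Between 40 and 120 ppm 0.0175% of all genes were called. There 3 of the 8 had an unadjusted p under 0.05, where 9.50% of all genes did. Cdkn1a was 0.82 lower on the log2 scale (-0.82 ± 0.31, limma adjusted p 0.38). Mdm2 and Ccng1 were higher, by 0.26 ± 0.12 and 0.49 ± 0.23 (limma adjusted p 0.50 and 0.51). A slope on log2(ppm + 1) over all 7 groups was called for 6 genes, 3 up (background 30.9%) and 3 down (41.8%). Over 5 to 120 ppm alone, within 1 set of arrays, limma called it for 0 of 8, also at an unadjusted p under 0.05. Of all genes 0.00585% were called there as rising with concentration and 0% as falling, and 21.7% had an unadjusted p under 0.05 in either direction. The slopes of the 8 lay between -0.12 and 0.07 log2 per doubling of ppm + 1, and the lowest adjusted p was 0.24 (Sesn2).

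**Figure D3:**
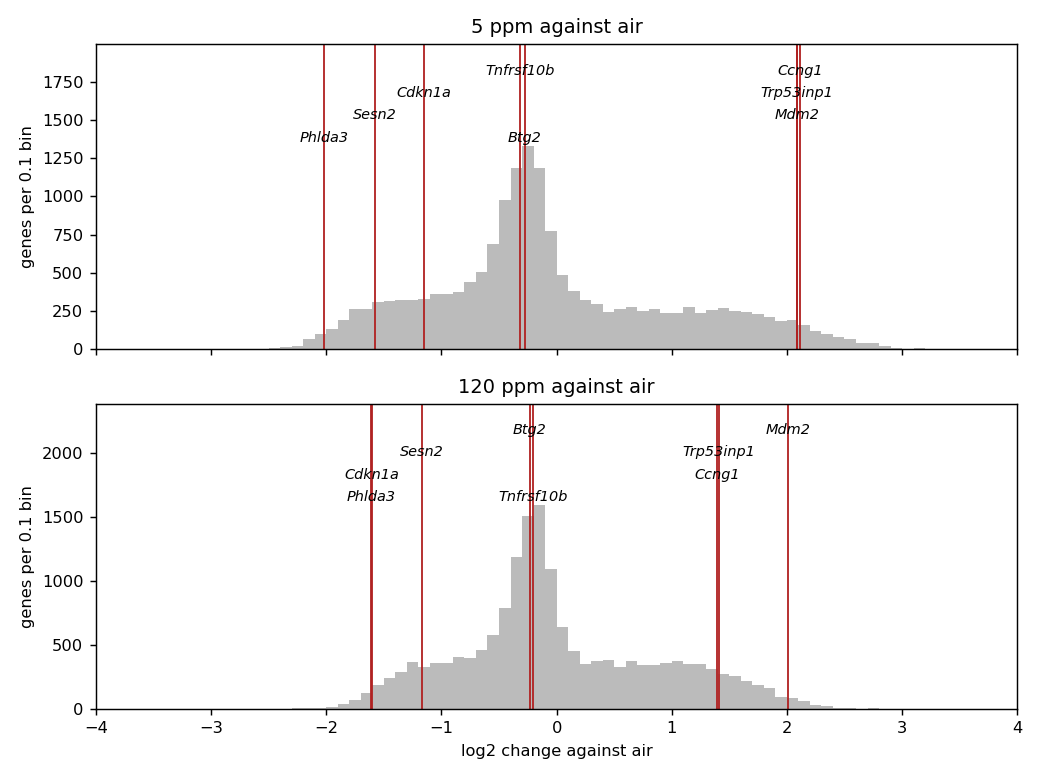
Number of genes (vertical axis) in bins of 0.1 of the log2 change against air (horizontal axis) at 5 ppm (top) and 120 ppm (bottom), over 17097 genes, with red lines at the 8 p53 targets. Both distributions have broad shoulders on either side of a peak just below 0; Btg2 and Tnfrsf10b sit in the peak, Mdm2 far into the upper shoulder, and Phlda3 near the lower edge.

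Whether the 8 genes varied together between mice of 1 group was described after each group's mean had been subtracted. The 28 pairs had Pearson correlations from -0.49 to 0.80 over the 35 arrays, with a median of -0.03. Ccng1 and Trp53inp1 were the closest pair (0.80), followed by Mdm2 with Trp53inp1 (0.64), Cdkn1a with Btg2 (0.62), Cdkn1a with Tnfrsf10b (0.56) and Mdm2 with Ccng1 (0.54). Cdkn1a and Mdm2, both textbook reporters of p53, had a correlation of -0.12. The points share an array, and array-wide measures moved with some genes. Within groups, the score on the first principal component had correlations of -0.77 with Mdm2, -0.79 with Ccng1 and -0.81 with Trp53inp1. With Phlda3 it was 0.59, and with Cdkn1a and Btg2 0.17 and 0.13. Over the 35 arrays without group means subtracted, it was -0.98 with Mdm2, -0.92 with Ccng1 and -0.93 with Trp53inp1. It was then 0.97 with Phlda3, 0.95 with Sesn2, 0.68 with Cdkn1a, 0.56 with Tnfrsf10b and 0.39 with Btg2. The part of the array-wide measure in the pairwise values was not tested.

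**Figure D4:**
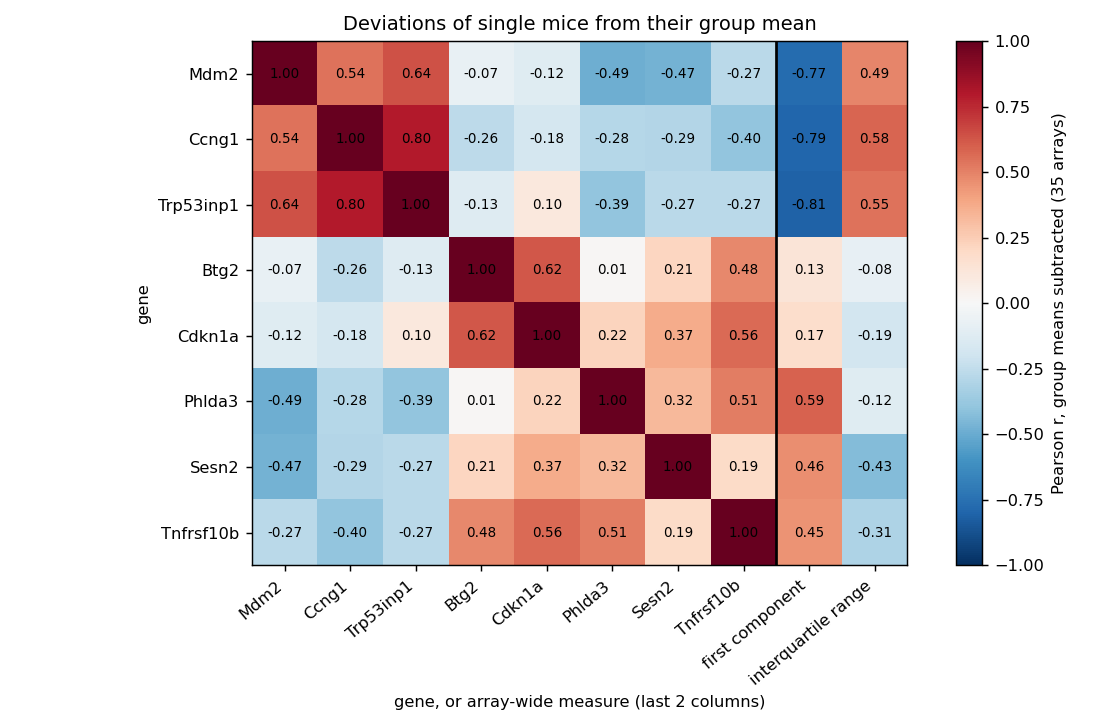
Pearson correlation (colour and number) between the deviations of single mice from their group mean, over 35 arrays, for each pair of p53 target genes (rows and the first 8 columns) and between each gene and 2 measures of the whole array (last 2 columns). Mdm2, Ccng1 and Trp53inp1 form a block from 0.54 to 0.80 and have the most negative values with the first component, while Cdkn1a and Btg2 stand together at 0.62.

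By the same measure, the 3 genes most like each member were taken from all genes, and no member was among those of another. For Cdkn1a they were Klf15 (r = 0.82), Slc10a6 (0.80) and Tle1 (0.80), and for Btg2 Rasgef1b (0.79), Dusp1 (0.78) and Slc10a6 (0.71), so that Slc10a6 was named for both. For Ccng1 they were Emc2 (0.93), Tmx3 (0.93) and Pnpla8 (0.92), for Trp53inp1 Fnbp1l (0.91), Tlk1 (0.90) and Rdx (0.90), and for Mdm2 Hnrnpdl (0.87), Cpne3 (0.85) and Insr (0.84). For Phlda3 they were Tbkbp1 (0.85), Hspbp1 (0.83) and Uck1 (0.81). The closest genes were Plekhf1 (0.78), 4930507D10Rik (0.76) and Aldh2 (0.75) for Sesn2, and Neurl1b (0.74), Rdh16f2 (0.70) and Slc45a3 (0.69) for Tnfrsf10b.

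The regulators of p53 were higher where they were called. Of 13 listed genes 10 were measured, and at 120 ppm 8 were called higher, 0 lower and 2, the checkpoint kinases Chek1 (0.09 ± 0.12) and Chek2 (0.32 ± 0.18), were not called. Of all genes 29.8% were called higher and 39.1% lower in that comparison. The median change of the list was 0.96, against -0.15 over all genes. Mdm4, the partner of Mdm2 that masks the activation domain of p53, rose by 1.38 ± 0.14, and Ppm1d, the phosphatase that ends p53 signalling and is itself a p53 target, by 1.26 ± 0.12. Hipk2, a kinase of p53, rose by 1.40 ± 0.10, and Usp7, which removes ubiquitin from Mdm2 and p53, by 0.93 ± 0.12. Trp53 itself was not analysed here. Mdm4 was highest at 5 ppm, at 7.77 ± 0.26 (SD, n = 5), against 5.91 ± 0.11 in air and 7.28 ± 0.27 at 120 ppm. Ppm1d had group means from 5 to 120 ppm of 7.03 to 7.16 against 5.90 ± 0.23 in air.

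Other p53 targets were called in both directions, as were all genes (29.8% higher and 39.1% lower at 120 ppm, 0.965% and 1.49% at 1 ppm). Of 10 targets that act in cell death, 4 were called higher and 4 lower at 120 ppm, with a median change of 0.06. Pmaip1, which encodes the BH3-only protein Noxa, rose by 1.61 ± 0.26 and the death receptor Fas by 1.49 ± 0.20, whereas Bbc3, which encodes the BH3-only protein Puma, was at -1.37 ± 0.14 and Ei24 at -0.61 ± 0.08. Of 19 targets in arrest, repair and metabolism, 8 were called higher and 7 lower. Polk, a translesion polymerase, rose by 1.85 ± 0.16, Fbxw7, a ubiquitin ligase subunit, by 1.38 ± 0.16 and Sesn1, the sestrin related to Sesn2, by 1.15 ± 0.13. Plk3, a polo-like kinase, was at -1.45 ± 0.15. Sesn1 and Sesn2 stood on opposite sides of air at 120 ppm, each past the test. The median of this second list was 0.06, and it turned to -0.07 after quantile normalization, with 6 higher and 9 lower. At 1 ppm 1 gene of each of these lists was called, lower in both.

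Since p21 lowers cell cycle genes through the DREAM complex, 15 of these were listed and 13 measured. At 120 ppm 3 were called higher, 4 lower and 6 not called, where 29.8% of all genes were higher and 39.1% lower. At 5 ppm 6 were higher and 4 lower, where 29.6% and 47.4% of all genes were. Cdc20, an activator of the anaphase-promoting complex, was at -1.09 ± 0.16 at 120 ppm. Cdc25c was at -0.49 ± 0.12 and Plk1 at -0.36 ± 0.10 at that concentration. Top2a, the topoisomerase of dividing cells, rose there by 0.94 ± 0.16. None of the 13 had a called slope over 5 to 120 ppm, where Top2a (-0.24 ± 0.05, adjusted p 0.059) and Mki67 (-0.35 ± 0.09, adjusted p 0.086) came closest.

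Genes that share regulators with single members were listed too. Of 12 measured targets of ATF4 and CHOP, the stress factors that also act on Sesn2, 7 were called lower and 2 higher at 120 ppm, with a median of -0.73. Over all genes 39.1% were lower and 29.8% higher, with a median of -0.15, and the list after it is read against the same shares. Chac1, which degrades glutathione, was at -1.92 ± 0.18, the serine and one-carbon enzymes Shmt2 and Phgdh at -1.48 ± 0.13 and -1.21 ± 0.16, and the transcription factor Cebpb at -1.06 ± 0.14. Of 16 measured immediate early genes, a class in which Btg2 is often counted, 10 were lower and 3 higher, with a median of -0.57. Junb was at -1.87 ± 0.18, Ier2 at -1.40 ± 0.13 and Jun at -0.95 ± 0.10, and Klf6 rose by 1.18 ± 0.14. At 1 ppm no gene of these 2 lists was called by limma.

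The calls of these lists also moved with the interquartile range as a covariate at 120 ppm, extrapolated as above. The shares of all genes given above come from the fit without the covariate, so the counts below have no background beside them. Of the regulators 6 of 10 were still called higher, of the cell death targets 0 higher and 2 lower, and of the arrest, repair and metabolism targets 2 higher and 3 lower. None of the 13 cell cycle genes was called in that fit. Of the ATF4 and CHOP targets 5 were lower and 0 higher, and of the immediate early genes 5 lower and 2 higher.

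**Figure D5:**
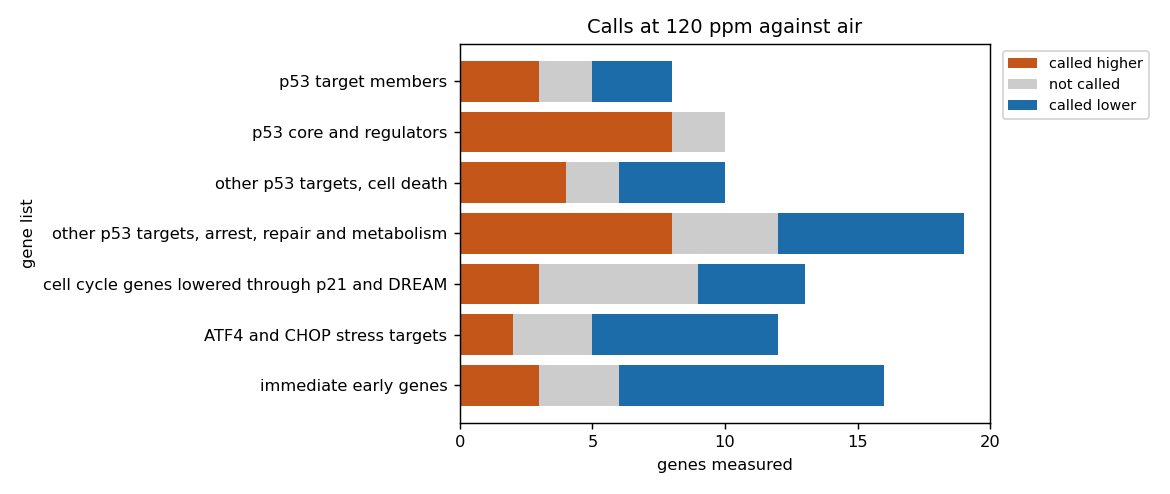
Number of measured genes (horizontal axis) called higher (orange), called lower (blue) or not called (grey) at 120 ppm against air, for the p53 target genes and 6 related lists (vertical axis). The regulators of p53 have 8 genes higher and none lower, both lists of other targets are split (the second with 6 higher and 9 lower after quantile normalization), and the ATF4 and immediate early lists are mostly lower.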

How the data were processed

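The table deposited by the authors holds log2 expression of 45037 probe sets on 35 Affymetrix arrays. RMA and Partek are named per the submitters' processing notes, without versions; the genome build is not given in the sources used here. Arrays have no read depth, so their number limits the precision.

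Symbols came from the platform annotation: 28898 probe sets had 1 symbol, 551 several and 15588 none. limma 3.58.1 (R 4.3.3, lmFit and eBayes) was fitted to all genes with 1 mean per group, and Benjamini-Hochberg adjustment ran over all genes of a comparison. Tests are two-sided and errors of changes are standard errors. P-values set a change against the spread between mice of a group, which does not cover the difference between the sets of arrays. The procedure was tested on simulated data with independent noise for each gene and no gap between sets of arrays. That test therefore does not bear on the gap in these data. Changes are differences of log2 values.

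The members and lists were chosen with earlier results of these data known. All members are named. Other genes could be named, and not all were, if among the 4 called genes of a list at 120 ppm or its 2 genes for the slope over 5 to 120 ppm with the smallest adjusted p, or among the 3 genes most like a member. Mdm4 and Ppm1d could be named whatever they did. The steps between neighbouring concentrations were an addition made with the data in view, and Chek1 and Chek2 were named after their values were seen. Alternatives were quantile normalization, median centring, averaged or single probe sets, no dim genes, other fits, the interquartile range as covariate, 1 ppm as control, a replicate block and leaving out each mouse. Figures were drawn with matplotlib 3.10.9.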

Additional observations from a re-analysis of the deposited data

Results flagged for a closer look

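Within each of the 56 groups of 5 mice (8 genes in 7 groups), the most extreme mouse was set against the others by Dixon's test, whose 95% limit for 5 values is a gap of 0.710 of the range. It was passed in 3 groups, and chance passes it in about 1 group of 20. Mouse 5 in air had Mdm2 at 6.24, with the other air mice at 5.67 to 5.83. Mouse 3 at 20 ppm had Trp53inp1 at 7.71, with the others at 8.80 to 9.03. Mouse 1 at 5 ppm had Sesn2 at 6.66, with the others at 5.92 to 6.12. Leaving out any of these mice ended no call for the gene concerned.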

How the results depend on the processing

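Between concentrations from 10 ppm up, 5 mice per group and a spread such as that of Cdkn1a limit what can be detected, and Tnfrsf10b lies near the bottom of the signal range. The cause of each change below was not tested, apart from the covariate, whose values are extrapolated across the gap between the arrays.

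With the interquartile range as covariate, members called higher fell to 1 at 5, 10, 20, 40 and 120 ppm and for the slope over all groups. Members called lower were then 2 at 5 ppm, 1 at 10 ppm, 1 at 40 ppm and 0 for that slope, and 2 were called in the step from 1 to 5 ppm. The share of all genes called in that fit is not given beside these counts, so they are not read as particular to the members. The covariate turned these changes at 1 ppm: Ccng1 0.30, Trp53inp1 0.55, Sesn2 -0.16 and Tnfrsf10b -0.10. It turned Tnfrsf10b to 0.075 at 5 ppm, 0.18 at 10 ppm, 0.20 at 20 ppm, 0.26 at 40 ppm, 0.13 at 120 ppm and 0.17 for 5 against 1 ppm. Ccng1 became -0.14 at 10 ppm, -0.18 at 20 ppm and -0.21 at 40 ppm, Trp53inp1 -0.10 at 20 ppm, and Btg2 0.0044 at 20 ppm and 0.063 at 40 ppm. Slopes over all groups became -0.059 for Ccng1, -0.041 for Trp53inp1, 0.00562 for Btg2 and 0.020 for Tnfrsf10b, and the slope of Mdm2 over 5 to 120 ppm became 0.019. None of these turned values was called.

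Other turned signs, all of values not called in the alternative, were these. Quantile normalization gave 0.0099 for Cdkn1a and 0.073 for Trp53inp1 at 1 ppm, and 0.017 and 0.060 for Tnfrsf10b at 20 and 40 ppm. Centring on array medians gave 0.016 for Cdkn1a and 0.018 for Trp53inp1 at 1 ppm and 4.7e-05 for the slope of Mdm2 over 5 to 120 ppm. It moved the median change of all genes at 5 ppm from -0.23 to -0.33, and Btg2 at 120 ppm was then called (-0.30). Averaging the probe sets of each gene gave -0.22 for Mdm2 and -0.056 for Sesn2 at 1 ppm, 0.047 for Tnfrsf10b at 20 ppm and 0.045 for Btg2 between 40 and 120 ppm. The second probe set alone gave -0.45 for Mdm2 and -0.20 for Sesn2 at 1 ppm, and 0.31 for Btg2 between 40 and 120 ppm. For Tnfrsf10b it gave 0.0078, 0.0012, 0.20 and 0.0032 at 5, 10, 20 and 120 ppm, -0.0067 between 5 and 10 ppm, 0.031 between 40 and 120 ppm, 0.00064 for the slope over all groups and -0.0054 for that over 5 to 120 ppm. With 1 ppm in place of air, Btg2 was 0.032 at 40 ppm.

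Without the 5 ppm group, slopes over 10 to 120 ppm turned for 7 of 8 genes and none was called: Mdm2 0.070, Ccng1 0.13, Trp53inp1 0.074, Phlda3 -0.024, Sesn2 -0.035, Btg2 -0.019 and Tnfrsf10b -0.019. The share of all genes whose slope turned is not given here, so this count is not read as particular to the members. Fitting only the groups compared left 3 members lower at 5 ppm. Leaving out each mouse in turn, that count ranged from 3 (without mouse 2 at 5 ppm) to 5. The shares of all genes called in these fits are not given here, so the counts are not read as particular to the members. Leaving out single mice also turned some values that were never called. At 1 ppm the ranges were -0.12 to 0.11 for Cdkn1a, -0.076 to 0.10 for Mdm2, -0.14 to 0.14 for Trp53inp1 and -0.011 to 0.17 for Sesn2. Those of Btg2 at 40 ppm (-0.093 to 0.084), Phlda3 between 40 and 120 ppm (-0.14 to 0.052) and the slope of Mdm2 over 5 to 120 ppm (-0.021 to 0.014) also crossed 0.

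The labels do not tie mouse numbers across groups, and the numbers were not taken as pairs in the main fit. Of 105 pairs of the same number, 46 had a correlation of deviations over 0.1. That count alone does not decide whether mice of the same number belong together. The mean was 0.049 for the same number and -0.012 for different numbers, and 16 of 35 arrays correlated best with their own number, a hint from the data and not from the design. With the number as a replicate block, Mdm2 was called as well between 5 and 10 ppm (adjusted p 0.045), and no other call of a member changed.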
